A study of Mus musculus with 12 samples.

Results

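The genes described here were 10 genes of phagocytic and disease-associated microglia (DAM), namely Trem2, Tyrobp, Apoe, Cst7, Spp1, Lpl, Gpnmb, Itgax, Clec7a and Axl. Each was taken as the row of the deposited count table with that symbol, and all 10 were found among the 39756 genes listed. RNA sequencing was performed on brain hemispheres of 12 male C57BL/6J mice, 4 in each group. The study's methods give the mice as 9 to 10 weeks old and call the tissue ischemic hemispheres, although Sham mice had no arterial occlusion. Sham mice underwent sham surgery, whereas in both other groups the middle cerebral artery was occluded for 45 min by transient occlusion (tMCAO) and then reperfused. LJP mice received Laminaria japonica polysaccharide, a polysaccharide of a brown seaweed, by the intragastric route. Dosing ran once daily for 14 days before surgery and continued afterwards, and Sham and Vehicle mice received saline on that schedule. All libraries carry the same batch label, and the labels give neither the dose nor the time of tissue collection. The study's text chose the middle of its tested doses for the experiments that followed its dose finding, without naming the sequenced mice.

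Microglia are the resident macrophages of the brain. In the disease-associated state they take up lipid and debris, and they raise a shared set of genes while genes of the resting state fall. Entry into the later stage of this state depends in mouse models on the surface receptor TREM2, which binds lipids and apolipoproteins and signals through the adaptor TYROBP (DAP12). The other genes code for secreted proteins (Apoe, Cst7, Spp1, Lpl) and for membrane proteins of uptake and adhesion (Gpnmb, Itgax, Clec7a, Axl). None is exclusive to microglia: astrocytes make much of the brain's Apoe, blood-derived macrophages and dendritic cells carry Itgax, Clec7a and Spp1, and neurons carry Lpl. In hemisphere RNA, a larger number of such cells and more RNA per cell cannot be told apart.

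Levels are given in the order of mice 1 to 4 as CPM, read counts scaled to a common library total after TMM, which corrects the totals for composition. Differences are log2 fold changes with their standard errors (SE) from edgeR's quasi-likelihood test on all 12 mice, with p-values adjusted by the Benjamini-Hochberg method over the 17558 genes that passed the filter on low counts, and an adjusted p below 0.05 was called changed. All 10 genes passed that filter. Cst7, Itgax and Clec7a, with at most 9 counts in a Sham mouse, passed it through their levels in the Vehicle and LJP mice. Their calls against the Sham group are thus of genes kept for being present in those mice. Total counts per mouse ranged from 17960353 to 22216315, and a floor of 3 counts corresponds to 0.129 to 0.173 CPM. The libraries stood apart in 2 respects. Vehicle mice 1 and 2 had more RNA of monocyte and neutrophil markers than the other mice, with values given beside the marker sums. The 4 airway and lung genes listed summed to 8.55 to 13.2 CPM in the Sham and 8.35 to 10.6 CPM in the Vehicle libraries, but to 0.358 to 0.669 CPM in the LJP libraries. This difference separates the LJP libraries from all others, and its part in the LJP comparisons was not tested.

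After ischemia-reperfusion without LJP, 8 of the 10 genes were called higher than after sham surgery, from a fold of 2.00 for Axl to a fold of 91.4 for Spp1, and Apoe and Lpl were not called. The share of all genes tested that were called higher in the Vehicle group was 22.7%. In the Vehicle group each of these 8 genes had all 4 mice above all 4 Sham mice, which held for 20.7% of all genes tested. The median log2 fold change of the 10 genes was 3.13, beside 0.00 over all genes tested.

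The receptor pair was described first. Trem2 (Entrez Gene 83433, chromosome 17 from 48346401 to 48352276, plus strand, GRCm38) stood at 10.67, 11.55, 11.01 and 10.88 CPM in the Sham mice. It stood at 21.51, 57.79, 48.01 and 59.76 CPM in the Vehicle mice. Vehicle mouse 1 was well below the other three yet above every Sham mouse. The log2 fold change was 2.08 (SE 0.32, edgeR adjusted p = 0.00062), a fold of 4.24. Tyrobp (Entrez Gene 22177, chromosome 7 from 30413782 to 30417582, plus strand), the signalling partner of TREM2, lay between 4.90 and 6.19 CPM in the Sham mice. The Vehicle mice had 33.53, 52.29, 32.99 and 40.57 CPM of Tyrobp, a narrower spread than that of Trem2. Its log2 fold change was 2.81 (SE 0.29, edgeR adjusted p = 9.61e-05).

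Among the secreted proteins, Spp1 showed the largest change. Spp1 (osteopontin, Entrez Gene 20750, chromosome 5 from 104435111 to 104441053, plus strand) is a matrix-associated phosphoprotein that binds CD44 and integrins. It stood at 6.86, 10.41, 8.33 and 6.79 CPM in the Sham mice and at 324.5, 1888, 396.8 and 351.8 CPM in the Vehicle mice. Vehicle mouse 2 was far above the other three, which lay close together. The log2 fold change was 6.51 (SE 0.95, edgeR adjusted p = 0.000477), and it was 5.46 without Vehicle mouse 2. Cst7 (cystatin F, Entrez Gene 13011, chromosome 2 from 150570415 to 150578944, plus strand), an inhibitor of lysosomal cathepsins, had only 2, 1, 3 and 1 counts in the Sham mice. The Vehicle mice had 52, 107, 74 and 97 counts. The ratio of summed counts, scaled by library size, was 41.9 with a 95% counting interval from 20.1 to 105, and the edgeR adjusted p was 0.000146. Such counting intervals pool the reads of a group and leave out differences between mice. The edgeR 95% interval of the fold, which includes those differences, ran from 15.8 to 99.2.

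Apoe and Lpl, which both act on lipoproteins, did not follow the other members. Apoe (apolipoprotein E, Entrez Gene 11816, chromosome 7 from 19696244 to 19701310, minus strand), the main lipid carrier of the brain, had 1554, 1804, 1761 and 1851 CPM in the Sham mice. The Vehicle mice had 1438, 1753, 2250 and 2436 CPM, so that they held both the lowest and the highest values of the comparison. The log2 fold change was 0.18 with a 95% interval from -0.13 to 0.49 (edgeR adjusted p = 0.341), and Apoe was called only in the fit without Vehicle mice 1 and 2, described with the marker sums. Lpl (lipoprotein lipase, Entrez Gene 16956, chromosome 8 from 68880555 to 68906932, plus strand) had 25.95, 23.16, 24.22 and 22.70 CPM in the Sham mice, whereas the Vehicle mice had 19.74, 19.12, 27.18 and 31.04 CPM. Vehicle mice 1 and 2 lay below, and mice 3 and 4 above, the Sham range. Its log2 fold change was 0.01 with a 95% interval from -0.36 to 0.38 (edgeR adjusted p = 0.955).

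The membrane proteins all rose. Gpnmb (Entrez Gene 93695, chromosome 6 from 49036518 to 49058182, plus strand), a glycoprotein of lysosomes and phagosomes, had 2.25, 1.74, 2.41 and 2.59 CPM in the Sham mice and 7.58, 40.65, 19.75 and 38.04 CPM in the Vehicle mice. As with Trem2, Vehicle mouse 1 was the lowest and mice 2 and 4 the highest. The log2 fold change was 3.55 (SE 0.74, edgeR adjusted p = 0.00323). Axl (Entrez Gene 26362, chromosome 7 from 25756500 to 25788924, minus strand), a receptor tyrosine kinase that binds dying cells through GAS6, had 50.46, 50.07, 51.62 and 48.35 CPM in the Sham mice. The Vehicle mice had 102.5, 119.5, 85.69 and 92.19 CPM. Here Vehicle mice 1 and 2 were the highest, and the change was the smallest of the 8 and the most precise. Its log2 fold change was 1.00 (SE 0.12, edgeR adjusted p = 0.000151).

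Itgax and Clec7a were near the limit of detection in the Sham mice. Itgax (CD11c, Entrez Gene 16411, chromosome 7 from 128129526 to 128150657, plus strand) is an integrin chain of complement receptor 4, and it had 9, 4, 3 and 3 counts in the Sham mice and 46, 116, 37 and 48 counts in the Vehicle mice. Clec7a (Dectin-1, Entrez Gene 56644, chromosome 6 from 129461591 to 129472785, minus strand) is a receptor for beta-glucans, and it had 1, 4, 2 and 7 counts in the Sham mice and 42, 64, 45 and 77 counts in the Vehicle mice. Each Vehicle mouse was thus several times above the highest Sham mouse in both genes. The ratio of summed counts, scaled by library size, was 11.6 for Itgax (95% counting interval from 7.24 to 19.5, edgeR adjusted p = 0.00113). For Clec7a it was 14.5 (95% counting interval from 8.45 to 26.9, edgeR adjusted p = 0.00177). The edgeR 95% intervals of the fold, which include differences between mice, were wider. They ran from 4.54 to 26.4 for Itgax and from 4.92 to 41.5 for Clec7a. An annotated gene on the plus strand, Gm45969, overlaps Clec7a and had 0 to 3 counts in any mouse.

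**Figure D1:**
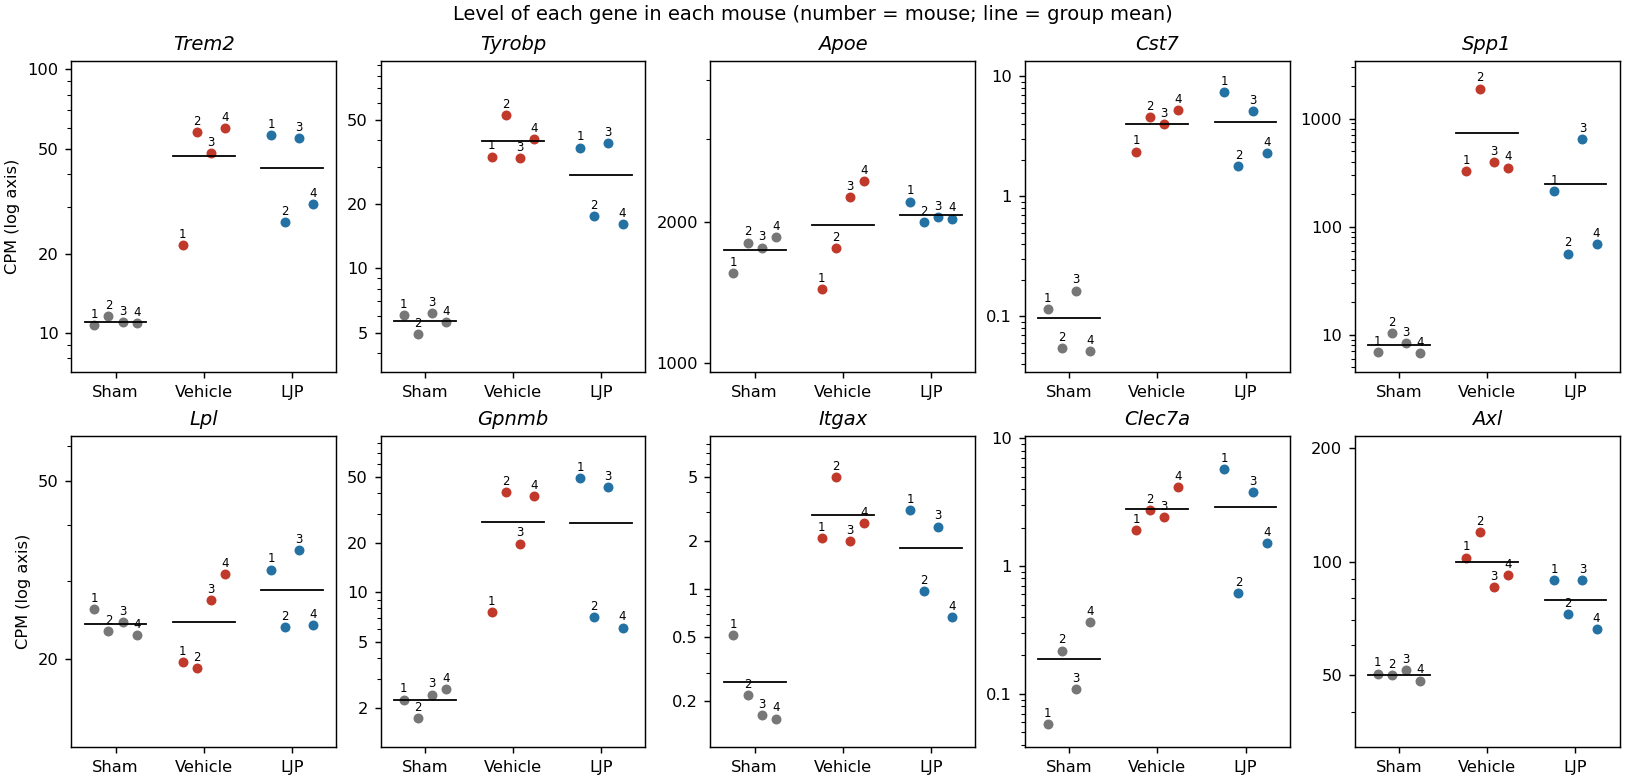
Level of each of the 10 genes in CPM (log axis, own range per panel) in each mouse, with the Sham group in grey, the Vehicle group in red and the LJP group in blue; numbers name the mouse and lines are group means (n = 4). In 8 panels all Vehicle and all LJP mice sit above all Sham mice, in the Apoe and Lpl panels Vehicle and Sham mice overlap, and in every panel LJP mice 1 and 3 sit above LJP mice 2 and 4.

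Promoter sequences of the members were read from the RefSeq table of GRCm38.p6, which held 8 of the 10 genes (not Tyrobp or Lpl) and gives 250 bases before to 50 bases after each start site. They were searched on both strands for TGANTCA, which takes in the AP-1 element, and for CACGTG, the E-box core bound by MITF and TFE factors. They were also searched for GAGGAAGT, a PU.1 element. None of these words contains another. TGANTCA was found in 4 of 8, Cst7, Gpnmb, Itgax and Trem2, beside 8.97% of all 27025 genes in the table. The AP-1 element itself has C or G as its middle letter, as in the matches of Gpnmb (TGACTCA) and Itgax (TGAGTCA). The matches of Cst7 (TGATTCA) and Trem2 (TGAATCA) do not spell it, and the share of all genes counts any middle letter. GAGGAAGT was found in 1 of 8, Spp1, beside 3.69% of all genes, and CACGTG in 0 of 8, beside 8.09%. All 5 genes were among those that rose in the Vehicle group. Clec7a and Axl held none of the words in these windows and rose as well. Apoe also held none and was not called. The windows are shown in part, since they hold the match, with the motif in capitals and the strand of the gene, which is plus in each case. They run from 100 bases before to 20 bases after the start site (140 before for Spp1), at chr2:150570315-150570434 for Cst7, chr6:49036418-49036537 for Gpnmb, chr7:128129450-128129569 for Itgax, chr17:48346301-48346420 for Trem2 and chr5:104434971-104435130 for Spp1.
Cst7: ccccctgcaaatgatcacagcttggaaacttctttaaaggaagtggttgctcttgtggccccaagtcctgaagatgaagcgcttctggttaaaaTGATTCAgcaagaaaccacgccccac
Gpnmb: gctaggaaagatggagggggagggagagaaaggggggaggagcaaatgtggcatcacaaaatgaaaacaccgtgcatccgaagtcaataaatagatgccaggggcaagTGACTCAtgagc
Itgax: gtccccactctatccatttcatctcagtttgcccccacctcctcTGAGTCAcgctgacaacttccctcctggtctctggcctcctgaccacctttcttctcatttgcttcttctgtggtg
Trem2: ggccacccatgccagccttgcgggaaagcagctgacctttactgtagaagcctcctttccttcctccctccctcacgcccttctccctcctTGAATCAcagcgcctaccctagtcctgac
Spp1: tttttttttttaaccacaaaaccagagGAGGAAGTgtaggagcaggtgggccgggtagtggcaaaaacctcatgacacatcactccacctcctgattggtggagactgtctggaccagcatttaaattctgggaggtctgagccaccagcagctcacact
The match began at base -6 in Cst7, -9 in Trem2, -56 in Itgax, -113 in Spp1 and 9 in Gpnmb, counted from the start site as base 1 and the base before it as -1. The start site of Itgax in this table lies slightly downstream of its start in the deposited table. A match describes the letters only.

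The LJP and Vehicle groups overlapped in all 10 genes, whereas 5.77% of all genes tested were higher and 5.91% lower in all LJP mice than in all Vehicle mice. With edgeR, 0 of 10 genes passed the adjusted threshold. The background in this comparison was 0.0228% of all genes tested, 4 genes, all lower in the LJP group. Of these, 3 were the airway and lung genes Scgb1a1, Sftpa1 and Sftpb that set the LJP libraries apart, and the other was Csf3, which codes for a granulocyte growth factor. These genes were named after their values were seen. With DESeq2 0 of the 10 passed as well, where 9.15% of the genes tested were called lower and 3.69% higher. At an unadjusted p below 0.05, edgeR gave 1 of 10, Axl, beside 29.7% of all genes tested. The fold changes pointed to higher values in the LJP group for 4 of 10 genes, and the median log2 fold change was -0.08, beside -0.00 over all genes tested. This comparison and that of Vehicle with Sham share the 4 Vehicle mice, so their fold changes are not independent.

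Axl came nearest to the threshold. The LJP mice had 89.20, 72.70, 89.20 and 66.16 CPM, and the highest of them lay between the lowest and the second lowest Vehicle mouse. The log2 fold change was -0.33 with a 95% interval from -0.59 to -0.08 (edgeR adjusted p = 0.096). Only the fit without Vehicle mouse 3, the lowest Vehicle mouse for Axl, called it, at -0.39 on the log2 scale (edgeR adjusted p = 0.0354), and that fit called 21.6% of all genes tested. In the other 11 fits that left out 1 mouse, the adjusted p of Axl stayed above the threshold.

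Spp1 had the widest interval. The LJP mice stood at 211.7, 56.29, 643.7 and 69.17 CPM, so that 3 of them were below every Vehicle mouse and LJP mouse 3 was above 3 of the 4. The log2 fold change was -1.59 with a 95% interval from -3.21 to 0.02 (edgeR adjusted p = 0.173). This value rested on single mice, since it was -0.54 without Vehicle mouse 2 and -2.72 without LJP mouse 3. Tyrobp had 36.93, 17.54, 38.78 and 16.11 CPM in the LJP mice. LJP mice 1 and 3 lay inside the Vehicle range and LJP mice 2 and 4 below it. Its log2 fold change was -0.54 with a 95% interval from -1.12 to 0.03 (edgeR adjusted p = 0.187).

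For the other members the intervals held 0, and in most they reached well to both sides. Trem2 had 56.37, 26.33, 54.93 and 30.82 CPM in the LJP mice and a log2 fold change of -0.15 (95% interval from -0.79 to 0.49). Gpnmb had 48.96, 7.11, 43.51 and 6.13 CPM, so that its group mean of 26.4 CPM lay where no mouse was, and its log2 fold change of -0.00 had a 95% interval from -1.37 to 1.36. The interval of Gpnmb thus reached beyond a 2-fold change in both directions. Itgax fell short of the threshold at -0.69 (95% interval from -1.72 to 0.34), with 68, 19, 45 and 12 counts in the LJP mice. Cst7 had 164, 35, 95 and 41 counts and Clec7a 127, 12, 70 and 27, and both had the highest and the lowest values of the 2 groups among the LJP mice. Their log2 fold changes were 0.05 (95% interval from -0.83 to 0.93) and 0.07 (95% interval from -1.09 to 1.23). Apoe and Lpl were the most tightly bounded. Apoe had 2206, 1993, 2047 and 2030 CPM in the LJP mice, with a log2 fold change of 0.07 (95% interval from -0.24 to 0.38). Lpl had 31.75, 23.62, 35.08 and 23.91 CPM, with a log2 fold change of 0.24 (95% interval from -0.13 to 0.61).

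**Figure D2:**
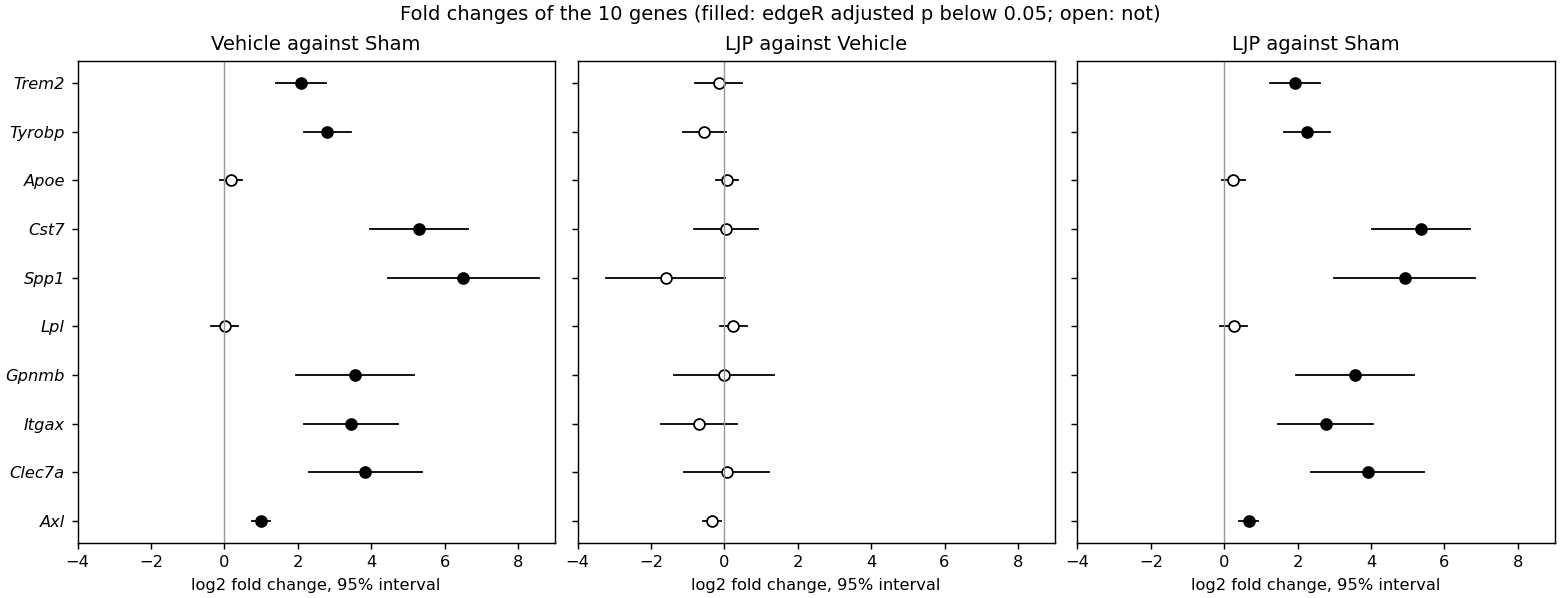
Log2 fold change of each gene in the 3 comparisons, with lines for the 95% interval of edgeR's fit to 12 mice and filled points for an adjusted p below 0.05. The 8 filled points on the left and on the right lie above 0, while in the middle panel all points are open and the Spp1 line runs from -3.21 to 0.02.

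Against the Sham group, whose 4 mice also served in the first comparison, the LJP mice had 8 of the 10 genes called higher, beside 3.85% of all genes tested. They were Trem2, Tyrobp, Cst7, Spp1, Gpnmb, Itgax, Clec7a and Axl, and all LJP mice were above all Sham mice in each, which held for 12.9% of all genes tested. The log2 fold changes were 1.93 for Trem2 (SE 0.32, edgeR adjusted p = 0.00407) and 2.27 for Tyrobp (SE 0.29, edgeR adjusted p = 0.00116). For Spp1 the value was 4.92 (SE 0.88, edgeR adjusted p = 0.00687), or 3.79 without LJP mouse 3, and for Axl 0.66 (SE 0.12, edgeR adjusted p = 0.00627). Cst7, with a few counts in each Sham mouse, had a ratio of summed counts of 44.99 (95% counting interval from 21.6 to 113, edgeR adjusted p = 0.000745). The ratio was 15.9 for Clec7a (95% counting interval from 9.26 to 29.4, edgeR adjusted p = 0.00717). The edgeR 95% interval of the fold, which includes differences between mice, ran from 16.4 to 103 for Cst7 and from 5.16 to 43.5 for Clec7a.

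Gpnmb and Itgax were the less secure calls of this comparison. Gpnmb had a log2 fold change of 3.55 (SE 0.74, edgeR adjusted p = 0.0163), and the adjusted p was between 0.0526 and 0.0643 in the fits without LJP mouse 3 or without any 1 of the 4 Sham mice. Itgax had a ratio of summed counts of 7.13 (95% counting interval from 4.40 to 12.2, edgeR adjusted p = 0.019). The edgeR 95% interval of its fold was wider, from 2.77 to 16.5. Its edgeR adjusted p was between 0.06 and 0.0724 without LJP mouse 1 or 3, or without Sham mouse 2, 3 or 4. Apoe was higher in all 4 LJP mice than in all 4 Sham mice, but its log2 fold change of 0.25 was not called (95% interval from -0.06 to 0.56, edgeR adjusted p = 0.383). With only these 2 groups in the fit, Apoe was called, at an edgeR adjusted p of 0.00795, and so it was without Vehicle mice 1 and 2, at 0.00635. The 7 astrocyte markers summed to 4121, 3967, 3952 and 3653 CPM in Sham mice 1 to 4, to 3516, 4872, 4995 and 5510 CPM in Vehicle mice 1 to 4, and to 5537, 4493, 4994 and 4252 CPM in LJP mice 1 to 4. All LJP sums were above all Sham sums, as for Apoe, and the Vehicle mice had the order of their Apoe levels. In the Sham group the mouse with the highest sum had the lowest Apoe, and the part of astrocytes in the Apoe level was not tested. Of the 7, 2 were called higher against the Sham group in the LJP mice, Gfap (3.47 on the log2 scale) and Aldh1l1 (0.69). In the Vehicle mice the same pair was called higher and Slc1a2 lower, at -0.76, and the other 4 markers were called in neither comparison. Lpl had a log2 fold change of 0.25 (95% interval from -0.12 to 0.62, edgeR adjusted p = 0.47).

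The LJP mice did not form a single level. In all 10 genes, mice 1 and 3 were above mice 2 and 4, an order that was seen after the values were examined and that held for 22.8% of all genes tested. Within the LJP group the highest mouse exceeded the lowest 11.4-fold for Spp1, 9.40-fold for Clec7a and 7.99-fold for Gpnmb, but only 1.11-fold for Apoe and 1.35-fold for Axl. The general microglia and macrophage genes Aif1, Csf1r, Ctss, C1qa, C1qb and C1qc had the same order in 6 of 6. Their summed level was 1060, 555, 1129 and 586 CPM in LJP mice 1 to 4, and 762, 1492, 1030 and 1114 CPM in Vehicle mice 1 to 4. It lay between 234 and 261 CPM in the Sham mice. Of the homeostatic microglia genes 11 of 12 shared the order, and of the neuron markers 0 of 6. It was not confined to microglia. It held for 4 of 5 fibroblast and meningeal, 4 of 7 astrocyte, 3 of 5 oligodendrocyte, 3 of 6 endothelial and 2 of 2 oligodendrocyte precursor markers. It held for none of the dendritic cell, T and NK cell or airway and lung genes tested. In the Vehicle group the order differed by gene. Mouse 1 was the lowest in 6 of the 10 genes, while mouse 2 and mouse 4 were the highest in 5 each.

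When each gene was set against those 6 general microglia and macrophage genes in the same mouse, the members separated. The measure was log2 CPM minus the mean log2 CPM of the 6 genes, described without a test. Relative to them, 4 members were higher in all Vehicle mice than in all Sham mice, which held for 0.797% of all genes tested. The mean difference was 3.93 for Spp1, 2.22 for Cst7, 1.25 for Clec7a and 0.63 for Tyrobp. Cst7, Clec7a and Itgax had few counts in the Sham mice, and the prior count of 2 in log2 CPM makes their differences from Sham mice smaller. Apoe, Axl and Lpl were lower in all Vehicle mice, by differences of -1.99, -1.15 and -2.15, as were 89.4% of all genes tested. Trem2 overlapped between all groups on this scale, with a relative level of -1.33 ± 0.07 (SD, n = 4) in the Sham mice, -1.50 ± 0.41 (SD, n = 4) in the Vehicle mice and -1.24 ± 0.06 (SD, n = 4) in the LJP mice. Gpnmb and Itgax overlapped between Sham and Vehicle mice on this scale.

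Between the LJP and Vehicle mice, this relative level overlapped in 9 of 10 genes, and Lpl was higher in all LJP mice, by 0.63, as were 1.52% of all genes tested. Against the Sham mice, Spp1, Cst7 and Tyrobp were higher in all LJP mice, as were 0.552% of all genes tested. Apoe, Lpl and Axl were lower in all LJP mice, as were 91.0% of all genes tested. The order of LJP mice 1 and 3 above mice 2 and 4 remained in 6 of the 10 genes on this scale, namely Tyrobp, Cst7, Spp1, Gpnmb, Itgax and Clec7a. The share of all genes tested with that order on this scale was not computed. For Spp1 the relative levels of the LJP mice were 0.72, -0.20, 2.27 and -0.04, and for Gpnmb -1.39, -3.17, -1.62 and -3.51. For Trem2 they were -1.19, -1.30, -1.28 and -1.20, within a narrow range.

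**Figure D3:**
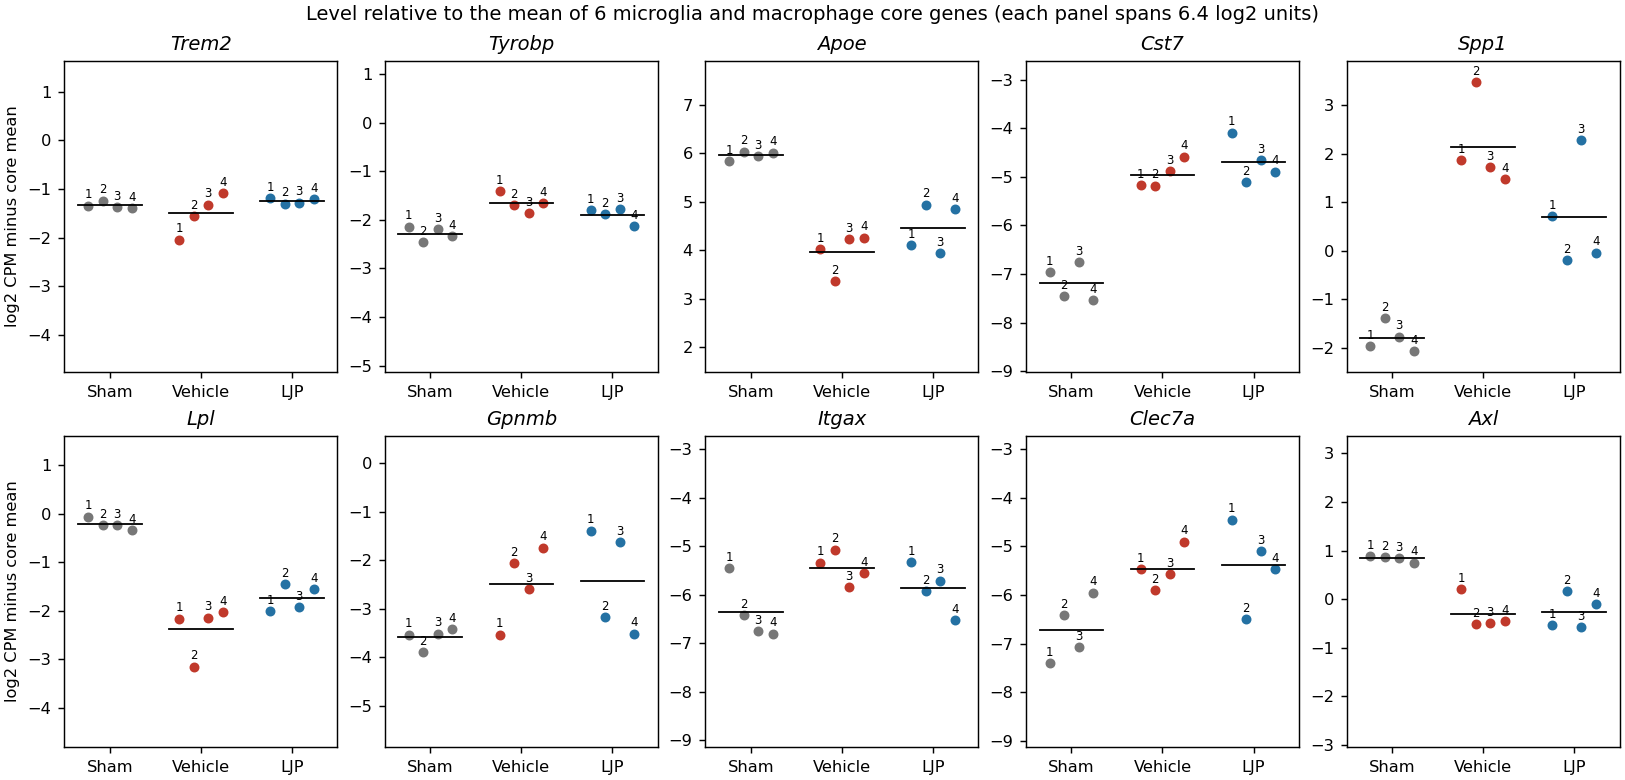
Log2 CPM of each gene minus the mean log2 CPM of Aif1, Csf1r, Ctss, C1qa, C1qb and C1qc in the same mouse, with every panel spanning the same log2 range; numbers name the mouse and lines are group means (n = 4). Spp1 and Cst7 rise above their Sham values in all Vehicle and LJP mice, Trem2 stays near its Sham value except in Vehicle mouse 1, and Apoe, Lpl and Axl lie below their Sham values.

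Levels of different genes were compared per kilobase of the transcript length in the deposited table. In the Sham mice Apoe stood highest at 520 ± 39.0 CPM per kb (SD, n = 4), far above Tyrobp (9.89 ± 1.01, SD, n = 4), Trem2 (9.62 ± 0.33, SD, n = 4) and Axl (9.50 ± 0.26, SD, n = 4), which overlapped with one another. Lpl at 5.93 and Spp1 at 4.88 CPM per kb overlapped, Gpnmb followed at 0.592, and Cst7 (0.0979), Clec7a (0.0818) and Itgax (0.0591) overlapped at the bottom. In the Vehicle mice Spp1 followed directly after Apoe, at 446.5 ± 462 CPM per kb (SD, n = 4), and overlapped with Apoe, which had 588 ± 136 CPM per kb (SD, n = 4). That overlap rested on Vehicle mouse 2, at 1139 CPM per kb of Spp1, since the other Vehicle mice had 195.7 to 239.3 CPM per kb of Spp1 and no Vehicle mouse had less than 429.4 CPM per kb of Apoe. Tyrobp (69.3 CPM per kb) and Trem2 (40.8 CPM per kb) followed, without overlap between them, and Clec7a and Itgax remained lowest at 1.23 and 0.652 CPM per kb. In the LJP mice Apoe, at 618 ± 28.1 CPM per kb (SD, n = 4), did not overlap with Spp1, at 148 ± 166 CPM per kb (SD, n = 4). Spp1, Tyrobp and Trem2 overlapped from neighbour to neighbour in these mice.

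Markers of other cells moved with the Vehicle group, and unequally between its mice. Summed levels of 6 monocyte markers were 14.9 to 16.9 CPM in the Sham mice, 148, 134, 23.4 and 36.4 CPM in Vehicle mice 1 to 4, and 20.2 to 28.3 CPM in the LJP mice. The 8 neutrophil markers summed to 0.272 to 0.519 CPM in the Sham mice, where Ly6g, Retnlg and Cxcr2 were at 0, to 165.5, 40.5, 0.754 and 5.55 CPM in Vehicle mice 1 to 4, and to 0.307 to 1.12 CPM in the LJP mice. Vehicle mice 1 and 2 thus stood apart in these 2 lists. The sum of the 7 T and NK cell markers, 4.90 to 9.31 CPM in the Vehicle, 23.4 to 28.6 CPM in the Sham and 10.7 to 16.1 CPM in the LJP mice, was set by 2 genes. Cd4 lay at 1.85 to 5.54, 19.0 to 25.3 and 6.25 to 12.1 CPM in these groups and Trbc2 at 1.46 to 4.53 CPM over all mice, while Cd3e, Cd3d, Cd8a, Gzma and Nkg7 had at most 13 counts in any mouse. The 3 B cell markers summed to less than 1 CPM in every mouse. With Vehicle mice 1 and 2 left out of the fit, an alternative chosen after seeing the data, the 8 genes were still called higher in the Vehicle than in Sham mice. This held for 15.7% of all genes tested. Spp1 then had a log2 fold change of 5.52, Trem2 of 2.28 and Axl of 0.82. In that fit Apoe was called as well, at 0.42 on the log2 scale (SE 0.07, edgeR adjusted p = 0.000335).

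Vehicle mouse 2, with the highest Spp1, also had the highest sums of border-associated macrophage markers (224 CPM, beside 41.5 to 87.7 CPM in the other Vehicle mice) and of 5 fibroblast and meningeal markers (1377 CPM, beside 127 to 242 CPM). Endothelial markers summed to 188 to 207 CPM in the Sham mice, 271 to 1367 CPM in the Vehicle mice and 178 to 243 CPM in the LJP mice. The part of these cells in the Spp1 level of Vehicle mouse 2 was not tested. Among the LJP mice, mouse 3, the highest for Spp1, had the highest border-associated macrophage sum (43.6 CPM) and the highest fibroblast sum (103 CPM). Of the 6 dendritic cell markers, which bear on Itgax, only Flt3 and Zbtb46 passed the filter on low counts, and the others had at most 12 counts in any mouse. Flt3 lay between 5.37 and 6.22 CPM in the Sham, 3.27 and 6.30 CPM in the Vehicle and 6.77 and 9.14 CPM in the LJP mice, so that the LJP mice did not overlap with the others. For LJP against Vehicle mice DESeq2 called Flt3 higher and edgeR did not (adjusted p = 0.068). Zbtb46 overlapped between all groups. The part of dendritic cells in the Itgax level was not tested. Neuron markers summed to 5988 to 6768 CPM in the Sham, 3713 to 5867 CPM in the Vehicle and 5653 to 6688 CPM in the LJP mice.

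**Figure D4:**
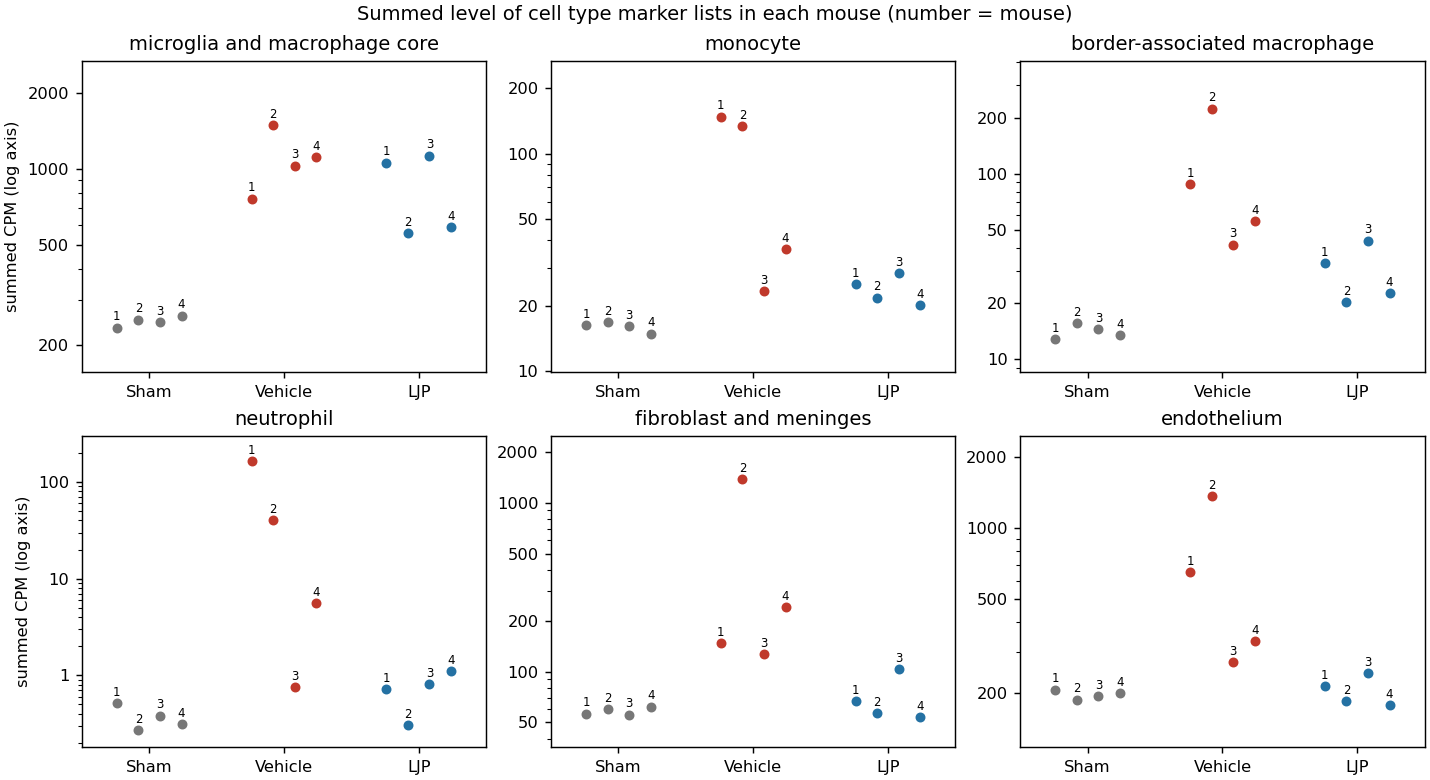
Summed CPM (log axis, own range per panel) of 6 cell type marker lists in each mouse, with the Sham group in grey, the Vehicle group in red and the LJP group in blue; numbers name the mouse. The core panel repeats the order of LJP mice 1 and 3 above 2 and 4, Vehicle mice 1 and 2 stand out for monocyte and neutrophil markers, and Vehicle mouse 2 alone reaches 1377 CPM in the fibroblast and meninges panel.

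Most other genes of the disease-associated programme also rose after ischemia-reperfusion. Of 26 such genes, all tested, 21 were called higher in Vehicle than in Sham mice and none lower, with a median log2 fold change of 2.29. For this and the following lists, medians, changes and the values in parentheses beside an SE are on the log2 scale. Over all genes tested, 22.7% were called higher and 17.3% lower in the Vehicle against the Sham group. In the LJP against the Sham group 3.85% were called higher. In the LJP against the Vehicle group edgeR called 0.0228% lower and DESeq2 9.15%. Lgals3 (galectin-3) rose by 6.22 (SE 0.52, edgeR adjusted p = 4.65e-05), from 0.714 ± 0.31 CPM (SD, n = 4) to 54.1 ± 21.6 CPM (SD, n = 4). The lysosomal protein gene Cd68 rose by 3.61 (SE 0.32, edgeR adjusted p = 5.24e-05) and the inhibitory receptor gene Lilrb4a by 7.03 (SE 0.67, edgeR adjusted p = 7.47e-05). Between LJP and Vehicle mice 0 of 26 were called by edgeR and 7 were called lower by DESeq2, and the median was -0.41. The smallest edgeR adjusted p was 0.0678, for the chemokine gene Ccl6 and the ferritin chain gene Fth1. The adjustment gave this same value to genes of different unadjusted edgeR p, here 0.000468 for Ccl6 and 0.00213 for Fth1, and it recurs in the following lists. Ccl6 had 31.1, 33.5, 3.88 and 9.43 CPM in Vehicle mice 1 to 4 and 1.53 to 4.68 CPM in the LJP mice, so that Vehicle mice 1 and 2 carried its group mean and Vehicle mouse 3 lay inside the LJP range. The growth factor gene Csf1 stood at -0.68 on the log2 scale (edgeR adjusted p = 0.0721). With Sham mice as the reference, 17 of 26 were called higher in the LJP mice.

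Most genes that carry the signals of TREM2 and Dectin-1 rose as well. Of 16 listed genes 15 were tested, and 13 were called higher in Vehicle than in Sham mice, with a median log2 fold change of 2.39. They include the kinase genes Syk (2.39, SE 0.32), Lyn (2.48, SE 0.31) and Btk (2.43, SE 0.25), the exchange factor gene Vav1 (2.70, SE 0.28) and the lipid phosphatase gene Inpp5d (1.99, SE 0.20). For LJP against Vehicle mice 0 of 15 passed with edgeR and 3 were called lower with DESeq2 (Inpp5d, Lyn and Syk), which also called Trem1, a gene that did not pass the filter of the edgeR fit, and all 15 fold changes were below 0, with a median of -0.56. Syk, the kinase recruited to phosphorylated TYROBP, had the smallest edgeR adjusted p at 0.068, with a log2 fold change of -1.10 (SE 0.30). Compared with Sham mice, 9 of 15 were called higher in the LJP mice.

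Other phagocytic receptors and their bridging proteins were divided. Of 19 tested out of 20, 13 were called higher and 3 lower in Vehicle than in Sham mice, beside 17.3% of all genes tested that were called lower, with a median of 2.37. The Fc receptor gene Fcgr3 (2.91, SE 0.27), the integrin gene Itgb2 (3.45, SE 0.37), whose protein pairs with CD11c, and the scavenger receptor gene Stab1 (3.12, SE 0.35) had the smallest p-values. The relatives of Axl gave other values than Axl itself. Mertk was at 0.28 on the log2 scale (edgeR adjusted p = 0.0665), and Tyro3 fell by 0.52 on the log2 scale (edgeR adjusted p = 0.0371). The other genes called lower were Mfge8, which codes for a bridging protein between dying cells and integrins, at -0.44 (edgeR adjusted p = 0.0416), and the adhesion receptor gene Adgrb1, at -0.43 (edgeR adjusted p = 0.0376). Of the 2 ligands of these kinases, Gas6 rose by 0.34 (edgeR adjusted p = 0.0306) and Pros1 by 2.51 (edgeR adjusted p = 0.000266). The values of Mertk, Tyro3 and Gas6 were picked after the results were seen, because of their kinship to Axl, and those of Mfge8 and Adgrb1 because few genes were lower. In the LJP against the Vehicle group 0 of 19 passed with edgeR and 6 were called lower with DESeq2, with a median of -0.55. Against Sham mice, 10 of 19 were called higher in the LJP mice.

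Genes of lipid handling had smaller fold changes. Of 15 tested out of 18, 10 were called higher in Vehicle than in Sham mice, with a median of 0.67. The lipocalin gene Apod rose by 3.11 (SE 0.31), the cholesterol exporter gene Abca1, which loads apolipoprotein E with lipid, by 1.55 (SE 0.16), and Clu by 0.52 (SE 0.07). Between LJP and Vehicle mice 0 of 15 passed with edgeR and 5 were called lower with DESeq2, with a median of -0.19. Angptl4, which codes for an inhibitor of lipoprotein lipase, had 43.4, 54.4, 5.76 and 9.75 CPM in Vehicle mice 1 to 4 and 3.58 to 7.36 CPM in the LJP mice (edgeR adjusted p = 0.0678), with Vehicle mouse 3 inside the LJP range. With Sham mice as the reference, 3 of 15 were called higher in the LJP mice, Abca1, Apod and Clu.

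Receptors and proteases of osteopontin and the matrix gene Thbs1 were measured beside Spp1. Of 8 tested out of 9, 6 were called higher in Vehicle than in Sham mice, with a median of 2.27, among them the receptor gene Cd44 (4.82, SE 0.39), Itgb3 (1.86, SE 0.28) and Itga5 (2.68, SE 0.53). For LJP against Vehicle mice 0 of 8 passed with edgeR and 6 were called lower with DESeq2. All 8 fold changes were below 0, with a median of -0.99. Thbs1, which codes for the matrix glycoprotein thrombospondin-1, had 288, 224, 11.5 and 31.5 CPM in Vehicle mice 1 to 4 and 6.45, 2.86, 19.6 and 3.46 CPM in LJP mice 1 to 4. Mmp3, a protease gene, was at 0 in all Sham mice, at 58.8, 19.9, 2.42 and 3.61 CPM in Vehicle mice 1 to 4, and at 0.0511 to 1.79 CPM in the LJP mice. Vehicle mice 1 and 2 carried the group means of both genes, and LJP mouse 3 was the highest LJP mouse in both. Both had an edgeR adjusted p of 0.0678. Compared with Sham mice, 1 of 8 was called higher in the LJP mice, Cd44, with a log2 fold change of 3.89 (SE 0.38, edgeR adjusted p = 0.000322).

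Among 13 tested of 14 listed regulators of the microglial state, 9 were called higher in Vehicle than in Sham mice, with a median of 0.54. The myeloid factor genes Spi1 (2.89, SE 0.32), Runx1 (3.84, SE 0.44), Cebpa (1.97, SE 0.19) and Cebpb (1.91, SE 0.37) were among them, as was Tfeb (1.02, SE 0.18), a regulator of lysosomal genes. In the LJP against the Vehicle group 0 of 13 passed with edgeR and 5 were called lower with DESeq2, which also called Tfec, a gene that did not pass the filter of the edgeR fit, and the median was -0.34. Tfeb had a log2 fold change of -0.77 (SE 0.17, edgeR adjusted p = 0.0678) and Spi1 of -1.08 (SE 0.29, edgeR adjusted p = 0.068). Against Sham mice, 4 of 13 were called higher in the LJP mice, Cebpa, Irf8, Runx1 and Spi1.

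Of 12 genes of the resting microglial state, all tested, 7 were called higher in Vehicle than in Sham mice and none lower, with a median of 0.72. The shares of all genes tested were 22.7% higher and 17.3% lower. Olfml3 (1.88, SE 0.34), Fcrls (2.49, SE 0.50) and Sall1 (0.66, SE 0.14) rose, while Siglech had a value of -0.28 (edgeR adjusted p = 0.585) and Gpr34 of 0.79 (edgeR adjusted p = 0.142). Between LJP and Vehicle mice 0 of 12 were called by either tool, and the median was 0.04. With Sham mice as the reference, 6 of 12 were called higher in the LJP mice, beside 3.85% of all genes tested. The 6 general microglia and macrophage genes had a median of 2.24 in the Vehicle against the Sham group, and all 6 were called higher.

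Genes were ranked by how closely their levels followed the members. The likeness was Pearson's r over the 12 mice between log2 CPM and the mean z-score of the 10 members, and it is a description across mice that share group differences. The 5 highest were Mpeg1 (perforin-2, r = 0.992), Csf1r (the receptor of colony-stimulating factor 1, r = 0.990), Adgre1 (F4/80, r = 0.988), Cd5l (r = 0.988) and Ctsd (cathepsin D, r = 0.987). With the group means subtracted, so that only differences between mice of a group counted, they were Mpeg1 (r = 0.988), Irf8 (a myeloid transcription factor, r = 0.974), Grn (progranulin, r = 0.965), C1qa (r = 0.959) and Scly (r = 0.954). The mean z-score itself was -1.07 to -1.03 in Sham mice. It was 0.02, 0.73, 0.67 and 1.00 in Vehicle mice 1 to 4, and 0.97, -0.09, 0.95 and -0.04 in LJP mice 1 to 4. LJP mice 1 and 3 thus reached the upper Vehicle mice, and LJP mice 2 and 4 lay just under Vehicle mouse 1. Among the members with group means subtracted, Trem2 and Gpnmb were most alike (r = 0.923), and Apoe was least like the rest (median r with the other members of 0.402).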

How the data were processed

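Poly(A) RNA of brain hemispheres of 12 mice was made into libraries with a NEBNext Ultra kit and sequenced as paired-end reads by the study. The authors deposited raw counts of reads per gene and mouse, without normalization, for 39756 genes. The submitters' processing notes name featureCounts and DESeq2, and both GRCm39 and mm10. Gene positions match GRCm38, with 39750 of 39756 genes (99.98%) at the start and end given by RefSeq. The aligner and the strand setting are not given in the sources used here, so reads of overlapping genes on opposite strands cannot be told apart.

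Analysis used R 4.3.3 and edgeR 4.0.16 (filterByExpr, TMM, quasi-likelihood fit of 3 group coefficients to 12 mice, Benjamini-Hochberg adjustment over 17558 genes). DESeq2 1.42.0, RLE factors, unscaled library sizes, omission of the low-count filter, the 2 groups alone, the replicate number as a block, the study's thresholds (0.58 on the log2 scale with an unadjusted p below 0.01) and leaving out each mouse were the alternatives, and leaving out Vehicle mice 1 and 2 together was added after seeing the data. Log2 CPM used a prior count of 2. Counting intervals are exact binomial and, like floors, cover counting error only. Standard errors were derived from the F statistic. No 2 mice of a group were alike within sampling noise (chi-square per degree of freedom at least 2.48). The fit was tested on simulated data.

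Groups came from the sample labels. The 10 genes, the gene lists and the comparisons were chosen with earlier results of these data known. Genes named from each list were the 3 with the smallest p-values in the Vehicle against Sham and in the LJP against Vehicle comparison, and the 5 genes most like the members with and without group means. Protein sequences were not used here. Values of some genes named by this rule are not reported here.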

Additional observations from a re-analysis of the deposited data

Results flagged for a closer look

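In the Vehicle group, Spp1 of mouse 2 stood apart from the other mice: at 1888 CPM beside 324.5 to 396.8 CPM, the gap to the nearest mouse on the log2 scale was 0.886 of the group's whole range, above Dixon's critical value for 4 samples. Of 30 groups compared (10 genes in 3 groups), 1 passed, and chance alone flags about 1 in 20 groups.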

How the results depend on the processing

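The 8 calls of the Vehicle against the Sham group were kept under every alternative run, as was the absence of a call in the LJP against the Vehicle group except for Axl without Vehicle mouse 3. With Vehicle mice 1 and 2 left out, an alternative chosen after seeing the data, Apoe gained a call against the Sham group in both the Vehicle (0.42) and the LJP mice (0.24), and 8 genes were changed between the LJP and Vehicle groups and 4389 between the LJP and Sham groups. Counts over all genes moved more. With the study's thresholds, 3807 genes were changed between the Vehicle and Sham groups (7014 with edgeR's adjusted p), and the fits that left out 1 mouse gave 5285 to 8200 genes. Between the LJP and Vehicle groups (4 genes), DESeq2 gave 2298, no filter on low counts 593, the 2 groups alone 2 and the study's thresholds 1223, and the replicate block gave 2. Leaving out 1 mouse gave 3 to 3857 genes, the highest without Vehicle mouse 3 and 2095 without Vehicle mouse 4, and 0 to 1 of the 10 members. DESeq2 called 34 genes of the pathway lists in this comparison, Trem1 and Tfec among them, which edgeR did not test, and edgeR called 0. Between the LJP and Sham groups (834 genes), DESeq2 gave 1458, the 2 groups alone 4043, the replicate block 464, and leaving out 1 mouse 393 to 2357, with 6 to 8 of the 10 members called. The cause of these differences was not tested.

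Estimates near 0 changed sign. Lpl in the Vehicle against the Sham group was -0.0011 with the replicate block and between -0.13 and 0.11 without 1 mouse. In the LJP against the Vehicle group, Gpnmb was 0.0069 with no filter and between -0.49 and 0.33 without 1 mouse, Trem2 between -0.39 and 0.0217, Apoe between -0.0529 and 0.19, Cst7 between -0.39 and 0.31, and Clec7a between -0.50 and 0.41. With the replicate block Cst7 was -0.14 and Clec7a -0.11. Without Vehicle mice 1 and 2, Apoe was -0.1813, Cst7 -0.1349, Lpl -0.0265 and Clec7a -0.1581. Same-numbered mice of different groups did not deviate together (r between -0.322 and 0.114), so the numbers do not pair the mice. Under the block, Gpnmb in the LJP against the Sham group lost its call (edgeR adjusted p = 0.0781) and no other member's call changed. In the Sham group, Cst7, Itgax and Clec7a had at most 9 counts in a mouse, which limits the precision of their folds.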
